A study of Homo sapiens with 4 samples.

Results

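The comparison set confluent against sparse HEK293 cells, both given control siRNA, and covered every gene with a probe that carries 1 gene symbol in the platform annotation. It rests on 2 of the 4 arrays of the series. Of 18473 genes so named, 10247 were measured, which means that their probe was detected on at least 1 of the 2 arrays. HEK293 is an established cell line grown from human embryonic kidney, and the labels give the cells no other modification. In each group 500000 cells received 100 pmol of siRNA and were replated 24 hours later, on a 100 mm dish for the sparse group and on a 35 mm dish for the confluent group. They were collected after another 24 hours, so both groups had been transfected, replated and kept in serum-supplemented medium for the same time. The other pair of arrays holds cells treated in the same way with siRNA to CDC73, a subunit of the PAF1 complex of transcription, at the same 2 densities. Each group had 1 array, numbered replicate 1, and nothing in the labels tells whether the 2 densities came from 1 transfection or from separate ones. No difference below has a replicate error or a test, and every value describes single arrays.

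Cells that touch on all sides slow their growth, which is known as contact inhibition. One known route is the Hippo pathway, in which the kinases LATS1 and LATS2 keep the coactivators YAP and TAZ out of the nucleus, so that TEAD transcription factors lose their partners at genes such as CCN1, CCN2 and ANKRD1. Crowded cells are also known to spread less, carry fewer stress fibres, take up less growth factor and nutrient per cell, and engage cadherins and Notch ligands with their neighbours. HEK293 cells grow as a loosely epithelial sheet, with some neuronal genes switched on, and they carry adenovirus proteins that bind p53 and the retinoblastoma family.

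Values are bead intensities, which have no unit, and differences are confluent minus sparse on the log2 scale after background correction and quantile normalization. A probe was called detected when fewer than 0.01 of a panel of 453 olfactory receptor probes were as bright, which put the limit at an intensity of 121 on the sparse and 123 on the confluent array. The confluent array was the brighter, with a total intensity of 28273400 against 26276100, and 10098 against 9436 genes were detected on it. Across measured genes, the log2 values of the 2 arrays correlated with r = 0.971. Of the markers listed for HEK293 cells, 9 of 15 were detected on the confluent and 7 on the sparse array, among them VIM, KRT8, KRT18, NEFL and LHX1, while NEFM, NEFH, INA, PAX2, PAX8 and IRS4 were not detected on either. The only named CDC73 probe was also below the limit, at 72.3 in sparse and 98.3 in confluent cells.

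Of the 10247 measured genes, 396 (3.86%) lay 2-fold or more above their sparse value in confluent cells and 167 (1.63%) lay 2-fold or more below it. The differences ran from -0.75 at the 5th to 0.92 at the 95th percentile, around a median of 0.02. At 4-fold the counts were 20 higher and 6 lower. Of the 396 higher genes, 234 were detected on both arrays and 162 on the confluent array only. Of the 167 lower genes, 132 were detected on both and 35 on the sparse array only. Scaling the arrays to equal medians moved the median of all genes to 0.22 and the counts to 819 higher and 84 lower, so that 90.7% of the genes past 2-fold lay on the higher side, against 70.3% here. Genes near the detection limit made up much of the higher side: in the dimmest of 5 equal groups of genes 8.54% were at least 2-fold higher, and in the brightest 1.51%. Where a gene past 2-fold had a further detected probe, that probe had the same sign in 82 of 93 genes and was itself past 2-fold in 31. Over 1879 genes with 2 probes detected on all 4 arrays, the difference had an SD of 0.28 between probes of a gene.

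**Figure D1:**
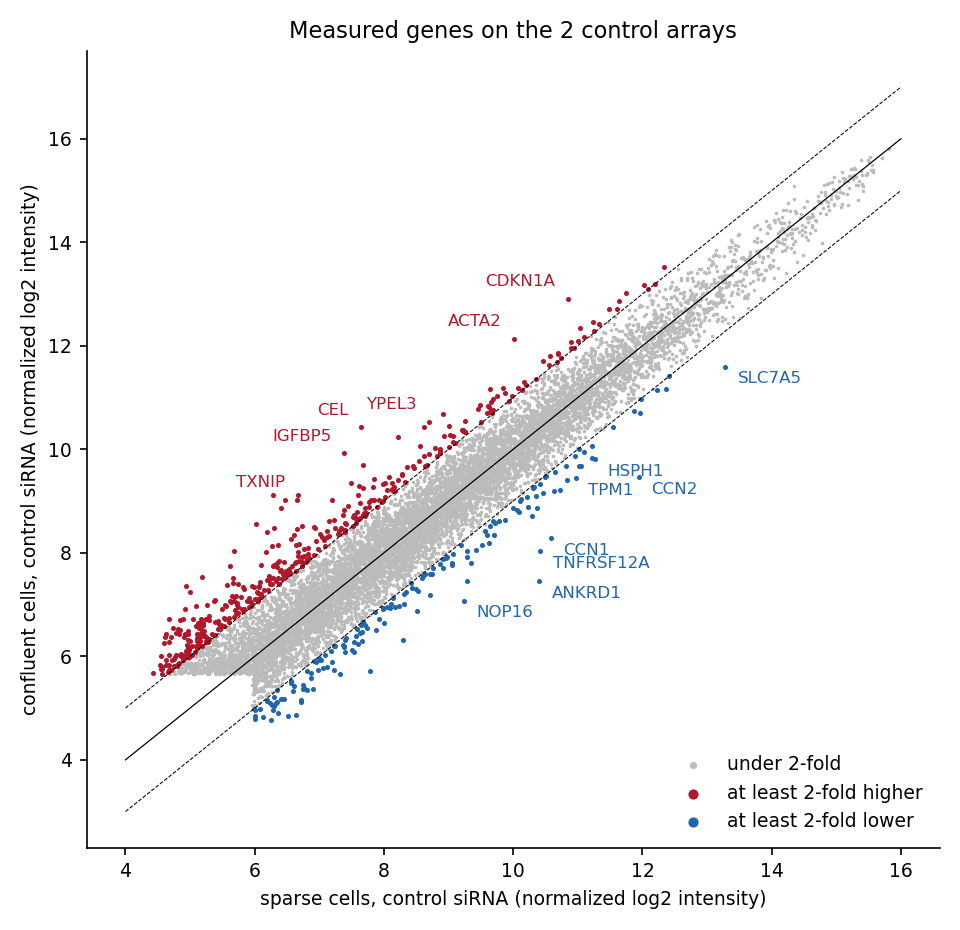
Normalized log2 intensity of the 10247 measured genes in sparse (x axis) and confluent cells (y axis) with control siRNA, 1 array each. The solid line marks equality and the dashed lines 2-fold. The 396 higher genes lie above the upper dashed line, many near the detection limit, while ANKRD1, CCN2, CCN1 and SLC7A5 stand out below the lower one.

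YAP/TAZ targets held the 2 largest reductions of the whole comparison. ANKRD1, an ankyrin repeat protein that serves as a standard YAP readout, gave 1436 in sparse and 284 in confluent cells, a difference of -2.95. CCN2, a secreted matricellular protein, gave 4244 and 913 (-2.49), and its second probe gave -2.78. CCN1, its relative, gave 1615 and 452 (-2.29). All 3 were still detected in confluent cells. Of 15 measured members, 10 were lower and 5 higher by any size, where 48% and 51.9% of all measured genes were lower and higher, and 5 were at least 2-fold lower against the 1.63% of all genes. The list median was -0.53. The LIM protein AJUBA gave 164 in sparse cells and an undetected 108 in confluent cells, which is at least 2.13-fold lower against the detection limit, and the stress gene GADD45B was lower by more than 2-fold (-1.05). Every such bound here holds on the normalized, background-corrected scale only, and with no background correction the AJUBA difference was -0.74. GADD45A, also a p53 target, was the highest member at 0.60, so the members did not move as a block.

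The promoters of ANKRD1 and CCN2 show the sequence that TEAD factors are known to bind. No promoter sequence was available for CCN1, so it was not examined. The 250 bases before the RefSeq start site are given 5′ to 3′ on the strand of the gene, on GRCh38.p14, with each GGAATG in capitals. ANKRD1 lies on the minus strand (chr10:90921088-90921337) and CCN2 on the minus strand (chr6:131951373-131951622).
ANKRD1: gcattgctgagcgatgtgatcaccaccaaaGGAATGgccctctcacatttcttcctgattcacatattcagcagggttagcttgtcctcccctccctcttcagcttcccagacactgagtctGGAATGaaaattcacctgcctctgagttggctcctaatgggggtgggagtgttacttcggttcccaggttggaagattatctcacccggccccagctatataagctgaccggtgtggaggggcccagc
CCN2: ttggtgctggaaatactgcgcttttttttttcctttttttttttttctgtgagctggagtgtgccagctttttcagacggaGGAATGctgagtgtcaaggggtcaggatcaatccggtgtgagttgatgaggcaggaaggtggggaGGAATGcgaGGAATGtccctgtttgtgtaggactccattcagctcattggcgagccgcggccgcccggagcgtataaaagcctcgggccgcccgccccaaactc
ANKRD1 held 2 copies, starting 220 and 128 bases before the start site, and the last base of the second is also the first of a GAANNTTC, a heat shock element core. CCN2 held 3 copies, starting 169, 104 and 95 bases before the start site. Counting GGAATG on either strand, 11.9% of all 27305 promoters of the table held at least 1 copy, as did 9.28% of those of measured genes. Among genes at least 2-fold higher 28 of 305 promoters held it (9.18%), and among genes at least 2-fold lower 21 of 122 (17.2%). It was present in 4 of the 10 promoters of YAP/TAZ targets found in the table. These are matches of letters in a short window, and whether TEAD factors bind there was not measured.

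The components of the Hippo pathway itself differed little. Of 16 measured members, 10 were higher and 6 lower, none by 2-fold, with a median of 0.04. The transcription factor TEAD4 gave 2215 in sparse and 1492 in confluent cells (-0.78), whereas TEAD2 gave 3253 and 5124 (0.61). YAP1 itself was higher in confluent cells, at 1852 against 1213 (0.43). The array measures RNA, and the place of YAP in the cell was not part of these data.

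Genes of the actin cytoskeleton split in opposite directions. Of 24 measured targets of serum response factor and actin-binding genes, 14 were lower and 10 higher. On each side 2 were past 2-fold, 8.33% of the list beside the 3.86% higher and 1.63% lower of all genes. The list median of -0.17 turned to 0.00 under median scaling, which moves all genes upward, and it was 0.19 and 0.22 below the median of all genes under the 2 scalings. TPM1, a tropomyosin of stress fibres, gave 2133 in sparse and 901 in confluent cells (-1.53), with -1.42 on its second probe. TAGLN, a calponin-related actin-bundling protein, was lower (-1.36). The smooth muscle actin ACTA2 ran the other way and gave 1112 and 5033 (2.12). Actins are close in sequence, so a contribution from other actin transcripts to the ACTA2 probe was not tested. The coactivator MRTFB was also higher, at 1.06. Tubulins were mostly lower, 10 of 13, with a median of -0.34, led by TUBB2A at -1.11.

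Most genes on a list of ERK feedback genes and ETS factors were lower. Feedback genes of the ERK kinase cascade are known to be switched on by growth factor signalling and to restrain it in turn. The list also holds receptor kinases and a cyclin, which are not feedback inhibitors. Of 10 measured members 9 were lower, 3 of them by at least 2-fold (30% against 1.63% of all genes). The list median was -0.49. The ETS factor ETV5 gave 274 in sparse and 125 in confluent cells (-2.07), just above the detection limit. The inhibitor SPRY4 was at least 1.38-fold lower by its bound, and its fitted difference was -1.30. SPRED2 (-0.61), SPRED1 (-0.55) and SPRY2 (-0.35) were lower within 2-fold. The receptor kinase EPHA2 was lower (-1.05), as was the cyclin CCND1, at 6643 and 5171 (-0.43). EPHA4 was the exception, at 0.97. Among growth factor ligands NRG1, which activates ERBB3, was at least 2.33-fold lower, while the receptors ERBB3 (0.80) and DDR1 (0.95), a collagen receptor, were higher without reaching 2-fold. A second ERBB3 probe gave -0.17, so that gene has no settled direction. IGFBP5, which binds insulin-like growth factors outside the cell, was among the 3 most increased genes detected on both arrays, at 219.7 and 1223 (2.55), with 2.04 on its second probe.

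Among TNF receptors the largest increase and the largest reduction of the family stood side by side. TNFRSF14, a receptor of the lymphotoxin-related ligand LIGHT, gave 145 in sparse and 701 in confluent cells (2.56). TNFRSF12A, the growth factor-inducible receptor of TWEAK, gave 1459 and 391 (-2.39). The other 8 measured members were within 2-fold.

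Targets of p53 were higher in confluent cells. Their best known member CDKN1A, the p21 inhibitor of cyclin-dependent kinases, gave 1955 in sparse and 8609 in confluent cells (2.06). The list of p53 targets was higher in 21 of its 22 measured members, in 7 by at least 2-fold against the 3.86% of all genes, and the list median of 0.63 was the highest of the pathway lists with 10 or more measured members. GDF15, a secreted stress cytokine, gave 127 and 336 (1.68). The other members past 2-fold were the mitophagy gene SPATA18, the stress gene TP53INP1, the DNA repair genes DDB2 and XPC, and SESN1, a sestrin that restrains mTORC1, from 1.08 to 1.47. TIGAR was the only lower member. Cyclins, kinases and inhibitors of the G1 phase, by contrast, split into 11 higher and 10 lower of 21, with a median of 0.10, or -0.03 over members detected on both arrays. Among them the inhibitor CDKN2D was lower (-0.46), while CDKN1C, a relative of CDKN1A, was higher by 1.29, and CDKN1B by 0.43, though a second CDKN1B probe gave 0.02. YPEL3, a gene linked to cellular senescence, gave 466 and 1799 (1.84). BTG1, an antiproliferative gene, gave 1228 and 2923 (1.14).

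The genes of DNA replication and mitosis stayed within 2-fold. None of 35 measured DNA replication genes and none of 32 mitotic genes reached 2-fold. The replication genes had 24 higher and 11 lower members with a median of 0.15, and the mitotic genes 10 higher and 22 lower with a median of -0.19. The share of lower mitotic genes was 68.8%, beside 48% of all measured genes. Their median lay 0.21 below that of all genes here and 0.37 below it under median scaling. The licensing factor CDT1 was at 0.65 and the loading factor CDC6 at -0.62, the ends of the replication list. The mitotic cyclin CCNA2 gave 1501 in sparse and 1018 in confluent cells (-0.83). Among replication-dependent histones 10 of 12 measured members were higher, with a median of 0.36 and H2AC18 at 1.28. Histone genes are near-identical copies of each other, so single members are uncertain.

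**Figure D2:**
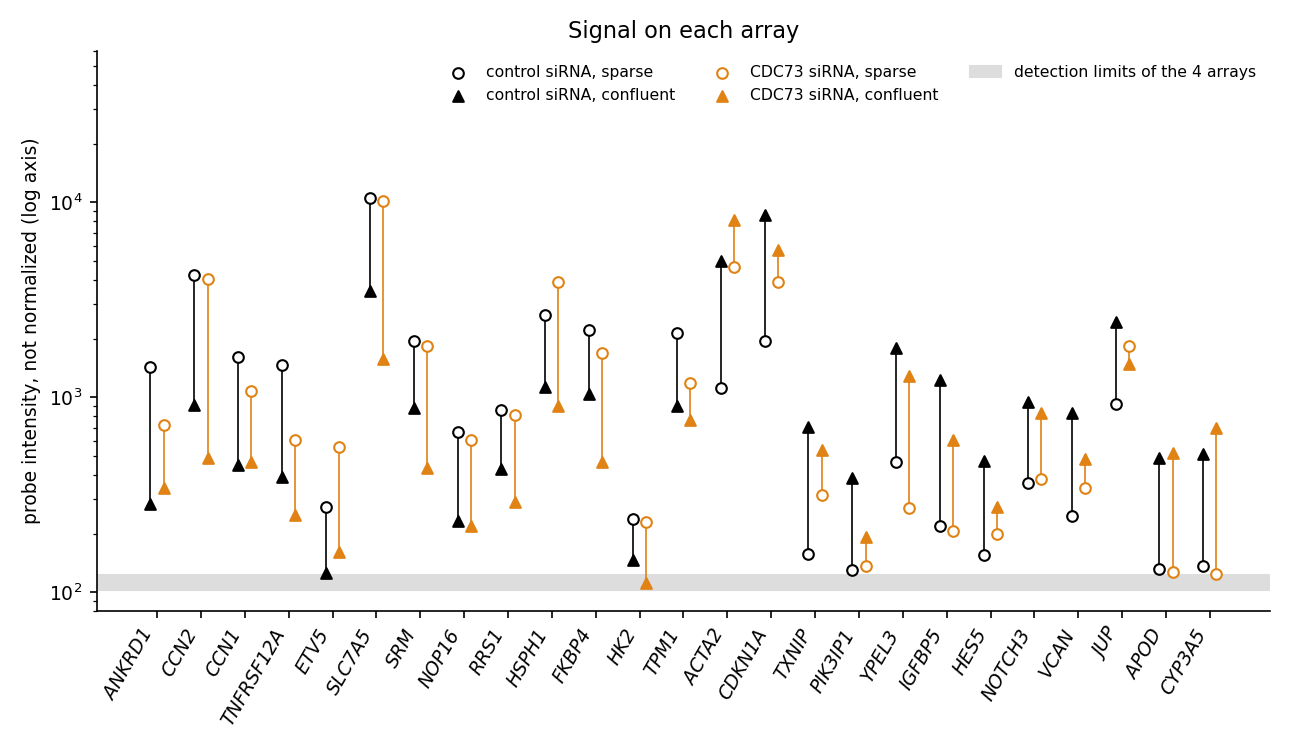
Intensity before normalization, on a log axis, of 25 genes on each of the 4 arrays; open circles are sparse cells, filled triangles confluent cells, black control siRNA and orange CDC73 siRNA, with 1 array a symbol. With control siRNA the genes from ANKRD1 to TPM1 are lower and those from ACTA2 to CYP3A5 higher in confluent cells; with CDC73 siRNA the pair turns round for JUP.

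Genes that FOXO factors and the glucose sensor MondoA are known to control were higher. Of 17 measured members 14 were higher, and the list median was 0.43. At least 2-fold higher were 5 (29.4% against 3.86% of all genes), among them SESN1, which is also on the p53 list. TXNIP, an arrestin that lowers glucose uptake, gave 158 in sparse and 702 in confluent cells (2.37). Its relative ARRDC4 was higher by 1.49, with 0.63 on a second probe. PIK3IP1, an inhibitor of PI3-kinase, gave 131 and 387 (1.85). KLF15 was lower (-0.88). RICTOR, counted among the 5 at 1.10, was detected just at the limit in confluent cells only and had no settled direction. The TXNIP promoter is shown because it holds a match to the paired element through which MondoA is known to act. It lies on the minus strand (chr1:145996580-145996829, GRCh38.p14, RefSeq), and the match to a pair of CACGNG boxes set 5 bases apart is in capitals, spacer included.
TXNIP: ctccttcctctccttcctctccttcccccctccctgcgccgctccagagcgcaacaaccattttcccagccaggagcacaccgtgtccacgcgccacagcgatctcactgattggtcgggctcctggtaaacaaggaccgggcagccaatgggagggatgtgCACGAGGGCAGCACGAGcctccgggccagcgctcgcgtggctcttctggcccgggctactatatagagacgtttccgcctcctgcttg
The match starts 88 bases before the start site. It was searched for on both strands after the perfect CACGTG gave no match in this promoter, so its presence here is not a test. Of all 27305 promoters 16 held it (0.0586%), and of 8425 promoters of measured genes 11 (0.131%). Among 15 promoters of the FOXO and MondoA list only 1 held it, that of TXNIP.

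Genes that make ribosomes were lower together. All 33 measured members of the list of large subunit assembly factors were lower, with a median of -0.57. At least 2-fold lower were 9 of them (27.3% against 1.63% of all genes). NOP16, a nucleolar protein of the large subunit, gave 661 in sparse and 232 in confluent cells (-2.16). NIP7 (-1.50), RRS1 (-1.45), RRP15 (-1.31) and MRTO4 (-1.31), further factors of the large subunit, followed it. Of 33 measured genes of the small subunit processome 32 were lower, with a median of -0.53. At least 2-fold lower were 4 (12.1% against 1.63% of all genes), led by UTP15 (-1.31) and PNO1 (-1.25). Of 11 genes listed with the guide RNA particles that modify ribosomal RNA 10 were lower, with a median of -0.52. The exception was NOP53 (0.54), which is itself known as an assembly factor of the large subunit and was not counted among the 33.

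The polymerases that transcribe ribosomal and transfer RNA were lower in 21 of 31 measured subunits and factors, with a median of -0.25. The polymerase III subunit POLR3G, the form of dividing and stem cells, gave 203 in sparse and 127 in confluent cells (-1.48). Its alternative form POLR3GL gave 969 and 1800.3 (0.71), so the 2 forms of 1 subunit lay on opposite sides. METTL1, which methylates transfer RNA, was lower (-1.53).

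The ribosomal proteins differed less than the factors that assemble them. Of 44 measured cytosolic ribosomal protein genes 20 were higher and 24 lower, with a median of -0.01, and only RPL37 passed 2-fold (1.11, with 0.42 on a second probe). RPL36A, which is not among those 44, was lower (-1.49). The list lay 0.03 below the median of all genes here and 0.29 below it under median scaling, where large subunit assembly lay 0.75 below. Its probes were bright, with a median intensity of 28160 in sparse cells against 414 for all measured genes. Cytosolic ribosomal protein genes have many processed copies in the genome, so probes of single members are uncertain. Mitochondrial ribosomal proteins were lower in 46 of 48 measured genes, with a median of -0.55, led by MRPL1 (-1.20) and MRPS17 (-1.11). The respiratory chain, which mitochondrial ribosomes supply with a few subunits, was lower in 33 of 50, with a median of -0.14.

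Heat shock proteins and their partners were lower. Of 31 measured members 26 were lower and 6 were at least 2-fold lower (19.4% against 1.63% of all genes). The list median was -0.47. HSPH1, an exchange factor of HSP70, gave 2643 in sparse and 1137 in confluent cells (-1.45). FKBP4, a co-chaperone of HSP90, gave 2206 and 1046 (-1.33). CHORDC1, also a partner of HSP90, was lower (-1.36), as were the scaffold STIP1 (-1.12) and HSPA4 (-1.07, with -0.46 on a second probe). Heat shock element cores (GAANNTTC or TTCNNGAA, either strand) were present in 9 of 27 promoters of the list (33.3%), in 8.86% of those of measured genes and in 11.8% of all, and HSPH1 was not among the 9. The chaperonin and prefoldin genes were lower in 14 of 15, with a median of -0.36. The proteasome was lower in 34 of 35 measured genes, with a median of -0.49. The exception was PSME1 (0.33), an interferon-inducible activator. PSMD1 (-1.08) and PSMD11 (-1.02), subunits of the regulatory particle, passed 2-fold, 5.71% of the list against 1.63% of all genes. PSMD11 did so from intensities of 257 in sparse and 190 in confluent cells.

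Nutrient uptake and biosynthesis were lower in part. SLC7A5, which brings large neutral amino acids into the cell, gave 10489.5 in sparse and 3508 in confluent cells (-1.68). Its partner chain SLC3A2 was lower (-0.70), and 12 of 17 measured amino acid transporters were lower, with a median of -0.28. SRM, the spermidine synthase, gave 1948 and 886 (-1.43). Of 22 measured genes of purine, pyrimidine and polyamine synthesis 20 were lower, with a median of -0.43, and ODC1, the first enzyme of polyamine synthesis, was at -0.70. HK2, a hexokinase, gave 237 and 146 (-1.46), with -1.24 on a second probe. The glucose transporters SLC2A3 (-0.89) and SLC2A1 (-0.86) and LDHA (-0.81) were lower within 2-fold. Cholesterol and fatty acid synthesis was lower in 17 of 25 measured genes, with a median of -0.27, and its only member past 2-fold was the reductase TM7SF2, which was higher (1.04).

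Translation factors were lower in 30 of 44 measured members, with a median of -0.15. Those past 2-fold, EIF4B and EIF4EBP1, lay on opposite sides, 2.27% of the list each way beside the 3.86% higher and 1.63% lower of all genes. EIF4B, which helps unwind the start of messenger RNA, gave 3371 in sparse and 7286 in confluent cells (1.10). EIF4EBP1, which restrains cap-dependent translation, gave 222 and 163 (-1.08). The other 42 measured factors were within 2-fold. Cytosolic aminoacyl-tRNA synthetases were lower in 13 of 18, with a median of -0.41 and none past 2-fold.

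**Figure D3:**
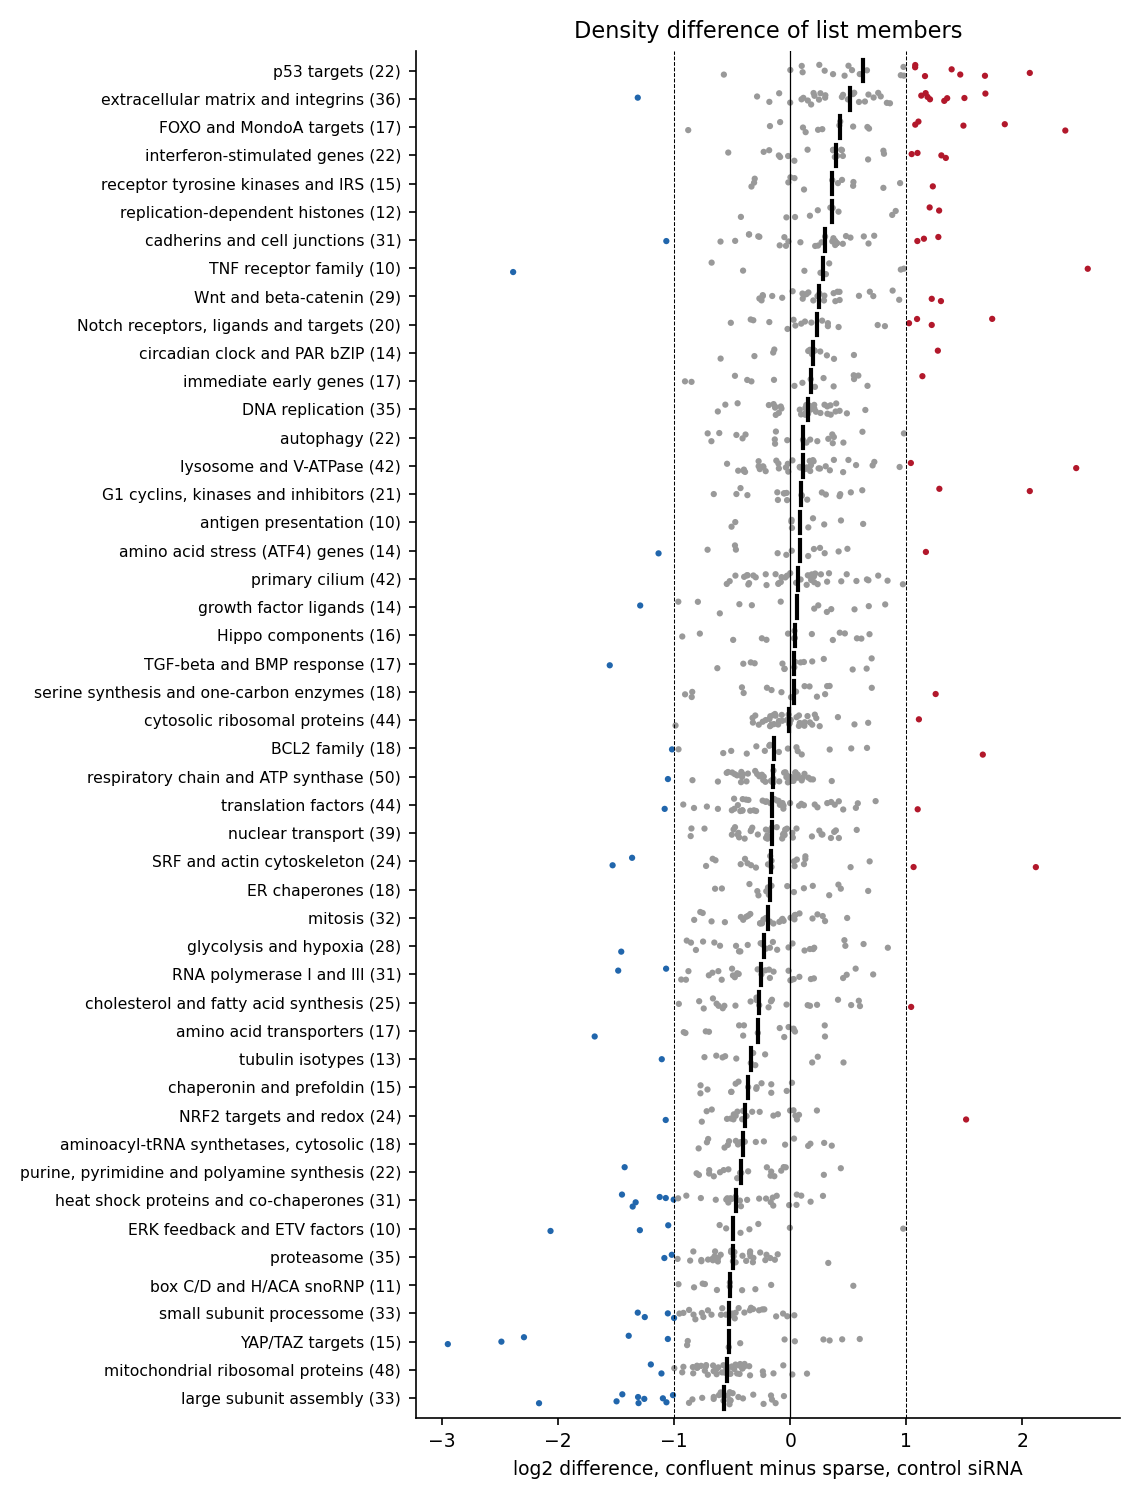
Density difference with control siRNA (x axis, log2, confluent minus sparse) of the measured members of each gene list with 10 or more of them, whose number is in brackets; each point is a gene, the black bar the list median, and the dashed lines 2-fold. The medians run from -0.57 for large subunit assembly to 0.63 for p53 targets, and in most lists the members spread across 0.

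Genes of the cell surface and its surroundings were higher. Of 36 measured matrix and integrin genes 31 were higher (86.1% against 51.9% of all genes). At least 2-fold higher were 8 (22.2% against 3.86% of all genes), and the list median was 0.52. The size of that median depended on the processing, at 0.31 in the authors' log2 values, 0.25 with the mean of probes and 0.25 with no detection filter. The proteoglycan VCAN gave 247 in sparse and 828 in confluent cells (1.68). The basement membrane laminin LAMB2 gave 183 and 476 (1.35). The matrix glycoprotein FBLN1 gave 2026 and 4899 (1.18), and the basement membrane collagen COL4A5 gave 648 and 1627 (1.17). THBS1, a matricellular protein, was at least 1.54-fold lower, as was TGFBI, a matrix protein induced by TGF-beta, at 2.08-fold or more. NID2 and COL6A2, counted among the 8, were undetected in sparse cells, and their bounds were 1.38-fold and 1.46-fold. Fibroblast markers had a summed intensity of 1970 (sparse) and 4070 (confluent), and most of that difference came from S100A4, at 869 and 2677. COL3A1, which is on both lists, was higher (1.20), while COL1A1 (0.11), LUM (-0.09) and PDGFRA (-0.02) were near level. PDGFRB (1.23), at 91.9 and 154, was detected in confluent cells only, with a bound of 1.18-fold. Of 6 measured fibroblast markers 3 were at least 2-fold higher (50% against 3.86% of all genes). Their median was 0.66, or 0.17 with undetected values at the detection limit. Of the fibroblast markers 6 of 10 were detected in confluent and 4 in sparse cells, and COL1A2, DCN, THY1 and FAP were not detected on either array. Their part in the result was not tested.

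Junction genes were higher in 20 of 31 measured members, beside 51.9% of all genes, with a median of 0.30. That median was 0.11 with the mean of probes, where 17 were higher and 14 lower, and 0.15 with no detection filter. Over members measured with both siRNAs it was 0.29 with control and 0.12 with CDC73 siRNA. Plakoglobin (JUP), which links cadherins to the cytoskeleton, gave 926 in sparse and 2439 in confluent cells (1.28). With CDC73 siRNA its intensities before normalization ran the other way. P-cadherin (CDH3) gave 149.8 and 321 (1.15), and claudin CLDN7 was at least 1.83-fold higher. The desmosomal plakophilin PKP2 was lower (-1.07). E-cadherin (CDH1), at 107 and 158, was detected in confluent cells only. The bulk RNA cannot tell more cells with a junction gene from more of its RNA in each cell, and the same holds for every gene here.

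Some Notch receptors and targets were higher with control siRNA. Of 20 measured members 15 were higher, 4 by at least 2-fold (20% against 3.86% of all genes). The list median was 0.23, or 0.10 with no detection filter. With CDC73 siRNA the median was -0.10 and 9 of the 20 had the same sign, with NOTCH1 at -0.10 and DLL1 at -0.59. The receptors NOTCH3 and NOTCH1 gave 363 and 879 in sparse and 943 and 2067 in confluent cells, which is 1.22 and 1.09. The target HES5, a repressor of the bHLH type, gave 155 and 472 (1.74), and HEY1, another such target, 2089 and 4559 (1.02). The ligands JAG2 (0.82) and DLL1 (0.75) were higher within 2-fold, and HES1, the best known target, was level (-0.02). The promoter of HES5 is shown because RBPJ, the DNA-binding partner of Notch, is known to act at this gene. It lies on the minus strand (chr1:2530264-2530513, GRCh38.p14, RefSeq), with GTGGGAA and its reverse complement in capitals.
HES5: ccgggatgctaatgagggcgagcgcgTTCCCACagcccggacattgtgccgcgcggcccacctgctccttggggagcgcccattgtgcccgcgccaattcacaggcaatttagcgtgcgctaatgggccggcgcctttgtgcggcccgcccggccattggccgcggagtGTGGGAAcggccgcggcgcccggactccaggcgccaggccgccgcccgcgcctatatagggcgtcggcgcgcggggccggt
HES5 held 2 matches, starting 224 and 81 bases before the start site, the first on the opposite strand. GTGGGAA on either strand was present in 5 of 17 promoters of the list (29.4%), in 5.06% of those of measured genes and in 5.46% of all. Among Wnt genes 23 of 29 measured members were higher, with a median of 0.25. The receptor FZD4 (1.30) and the secreted DKK3 (1.22) passed 2-fold, 6.90% of the list against 3.86% of all genes.

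Interferon-stimulated genes were higher in 16 of 22 measured members, with a median of 0.39. At least 2-fold higher were 4 (18.2% against 3.86% of all genes). One of the 4, IFIT2, was detected in confluent cells only and turned to -0.0210 with undetected values set at the detection limit. UBE2L6, which conjugates ISG15, gave 249.6 in sparse and 679.5 in confluent cells (1.34). The membrane tether BST2 gave 193 and 494 (1.30), and the transcription factor IRF9 242 and 569 (1.10). The clock output factor DBP was higher by 1.27, while the 13 other measured clock genes stayed within 2-fold. Of 24 measured redox genes of the NRF2 list 18 were lower, with a median of -0.39, but the aldo-keto reductase AKR1C3 was higher by 1.52, and it has close relatives that its probe may also detect.

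Several of the largest increases lay outside the groups above. CEL, a secreted lipase, gave 251 in sparse and 1680.4 in confluent cells (2.79), and it has a near-identical pseudogene. The zinc finger gene ZNF467 (2.53) and PARM1 (2.45) were also among them, as was ATP6V1G2 (2.46), a subunit of the proton pump of lysosomes. Beside it only the glucosidase GAA (1.04) of 42 measured lysosome genes passed 2-fold. Together they were 4.76% of that list, near the 3.86% of all genes. APOD, a lipid-binding apolipoprotein known to be induced in arrested cells, gave 132 and 489 (2.21). CYP3A5, a drug-metabolizing enzyme with close relatives, was higher by 2.18, and SELENOP, the plasma selenium carrier, by 2.01. Of genes detected in confluent cells only, ADHFE1, a mitochondrial dehydrogenase, had the largest bound, at least 4.23-fold, followed by FAXDC2 (3.45-fold) and CACNG6 (2.97-fold). BMF, a pro-apoptotic member of the BCL2 family, was at least 2.71-fold higher. On the lower side TFPI2, a secreted protease inhibitor, gave 212 and an undetected 122, a bound of at least 3.15-fold. CPA4, a carboxypeptidase, gave 175 and an undetected 108, at least 2.36-fold. With no background correction their differences were -0.99 and -0.83, both short of 2-fold.

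The pair of arrays with CDC73 siRNA shares no array with the control pair and gives the nearest second look at density, although siRNA differs. There 456 of 10508 measured genes (4.34%) lay 2-fold or more above and 409 (3.89%) as far below the sparse value. Of the 396 higher genes, 372 were measured in that pair, 336 of them had the same sign (90.3%) and 143 were also at least 2-fold higher. Of the 167 lower genes, 157 were measured, 145 had the same sign (92.4%) and 57 were also at least 2-fold lower. For all measured genes the share with the same sign was 60.4% among the higher and 65.2% among the lower. Across the 9990 genes measured in both pairs the differences correlated with r = 0.497 and rho = 0.427, which describes genes that share arrays and are not independent.

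Among genes detected on all 4 arrays, the lower genes with the largest difference common to both pairs were CCN2 (-2.49 with control and -2.89 with CDC73 siRNA), ETV5 (-2.07 and -2.05) and SLC7A5 (-1.68 and -2.45). The next were NOP16, HK2, HSPH1, SRM, CCDC86, RRS1, GPRC5A, NEK6 and FKBP4, all past 2-fold in both. The higher genes were led by APOD (2.21 and 3.0), IGFBP5 (2.55 and 2.19) and CYP3A5 (2.18 and 3.57), followed by TMT1A, CEL, ZNF467, YPEL3, ALG1L1P, NREP, PNCK, ATP6V1G2 and GDF15.

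ANKRD1 differed less with CDC73 siRNA. Its intensities in sparse and confluent cells were 1436 and 284 with control and 719.6 and 341 with CDC73 siRNA, so the sparse arrays differed more than the confluent ones, and its difference there was -0.89. CCN1 was at -0.96 in that pair and TPM1 at -0.28. CDK7, a kinase of the cell cycle and of transcription, was at -1.25 with control and 0.10 with CDC73 siRNA. Among genes detected on all 4 arrays, the higher genes least like the other pair were ZFC3H1 (1.46 and -0.39), the demethylase KDM3A (1.15 and -0.60) and 2 members of the multicopy NBPF family, whose second probes gave -0.47 (NBPF9) and -0.13 (NBPF10) with control siRNA. The peroxidase PXDN was at 1.80 and 0.17. With 1 array a group, whether the siRNAs differ in any of these was not tested.

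Lists also differed between the pairs in size and in some cases in sign. Over members measured in both, DNA replication had a median of 0.15 with control and -0.41 with CDC73 siRNA, and mitosis -0.19 and -0.49. The control median of DNA replication lay 0.13 above the median of all genes here and 0.08 below it under median scaling. One-carbon enzymes had 0.03 and -0.54, the first of which was -0.01 in the authors' log2 table. Mitochondrial ribosomal proteins had -0.55 and -0.13, the respiratory chain -0.14 and 0.13, and the proteasome -0.49 and -0.24. Matrix genes had 0.54 and 0.12, Notch genes 0.23 and -0.10, and Wnt genes 0.27 and -0.10. In contrast, p53 targets (0.63 and 0.53), FOXO and MondoA targets (0.43 and 0.50), interferon-stimulated genes (0.38 and 0.40), YAP/TAZ targets (-0.53 and -0.43) and large subunit assembly (-0.57 and -0.70) had close medians in both.

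**Figure D4:**
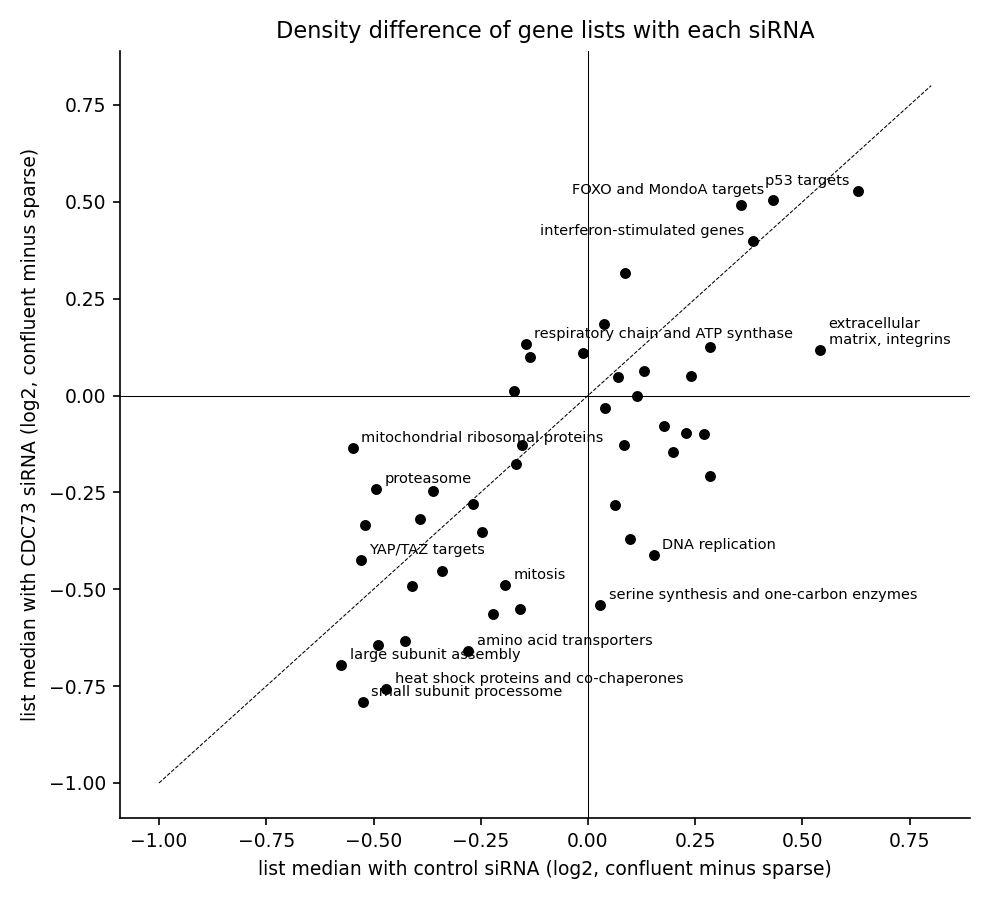
Median density difference (log2, confluent minus sparse) of each list with 10 or more measured members, with control siRNA on the x axis and CDC73 siRNA on the y axis, over members measured in both pairs; the dashed line marks equality. p53 targets lie near the upper right end (0.63 and 0.53), large subunit assembly near the lower left end (-0.57 and -0.70), and DNA replication below 0 on the y axis only (0.15 and -0.41).

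The difference also varied with the length of the gene. In the shortest of 10 equal groups of measured genes, up to 4.70 kb from start to end in RefSeq, the median difference was -0.08 and 43.5% were higher. In the longest group, from 148 kb upward, the median was 0.18 and 66.2% were higher. The rank correlation across 10243 genes was 0.126, and it was 0.199 in the brightest and 0.0345 in the dimmest of the 5 groups by level. With CDC73 siRNA it was -0.047 across 9986 genes, with medians of 0.08 in the shortest and 0.03 in the longest group. Genes at least 2-fold lower had a median length of 16.9 kb, those at least 2-fold higher 25.95 kb and all measured genes 28.4 kb. The mitochondrial ribosomal proteins, which were lower, had a median length of 11.02 kb, and the matrix and integrin genes, which were higher, 75.8 kb. Length did not order all lists, since the histones, at 0.506 kb the shortest of them, were mostly higher. Genes are not independent replicates, and no cause of this relation was tested.

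**Figure D5:**
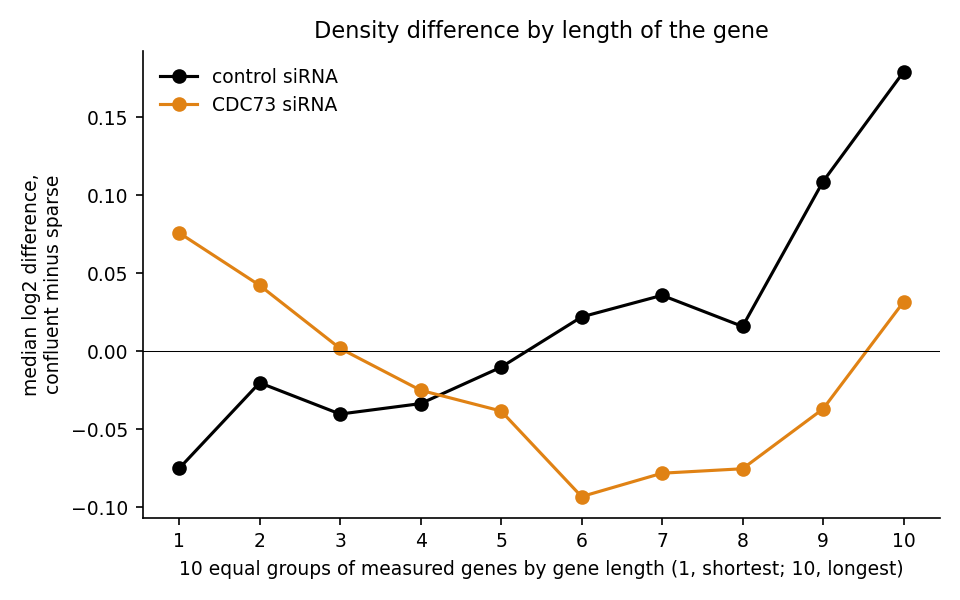
Median density difference (log2, confluent minus sparse) in 10 equal groups of measured genes ordered by gene length (x axis, 1 shortest), with control siRNA in black and CDC73 siRNA in orange, 1 pair of arrays each. With control siRNA the median runs from -0.08 in the shortest to 0.18 in the longest group; with CDC73 siRNA it is 0.08 and 0.03.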

How the data were processed

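Per the labels' protocols, total RNA was amplified into biotinylated cRNA for Illumina bead arrays. The authors deposited a table of probe intensity that is not normalized, on a linear scale and without detection p-values, per the file headers, and a log2 table of the same arrays. Every column of the latter had a median of 6.42, and each correlated with the log2 of its array's intensity at 0.998 or more, which fixes scale and direction; how it was normalized is unknown. The software behind both is not given in the sources used here. Of 49576 probes, 773 had no value; 28098 had 1 gene symbol, 13 several and 20692 none here.

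The panel of 453 olfactory receptor probes served as negative controls for normexp correction (limma 3.58.1 in R 4.3.3), with an offset of 16 and quantile normalization over the 4 arrays, tested on simulated data. A gene took its brightest named probe. With 1 array a group, differences are described by size (2-fold), and the number of arrays limits the precision. Where a gene was detected on 1 array only, its bound was taken against the detection limit. Counts and medians use fitted values.

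The 56 gene lists and all other choices were made with earlier results of these data known. Named genes were the 20 largest differences in each direction detected on both arrays (of which provisional symbols were only counted), 8 bounds in each direction, up to 8 members of a list, and those most and least alike with both siRNAs. TIGAR, PSME1, HES1, C1D, CGA and FOXP1 were named after their values were seen, and cell markers as absent or present. RefSeq promoters were matched by Entrez gene identifier for 8425 of the measured genes. The 10 alternatives covered background, scaling, detection and the choice of probe.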

Additional observations from a re-analysis of the deposited data

Results flagged for a closer look

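The genes C1D, CGA and FOXP1 were past 2-fold in opposite directions with the 2 siRNAs, each with 1 array a group, so the difference was not tested. C1D, a nuclear protein of RNA processing, was at -1.09 with control siRNA and 1.76 with CDC73 siRNA, from intensities of 168, 125, 89.6 and 155 (sparse and confluent with control, then with CDC73 siRNA). CGA, the alpha subunit of glycoprotein hormones, was at 1.71 and -1.04, from 103, 232, 224 and 128. FOXP1, a transcription factor, was at -1.0 and 1.21, from 123, 92.1, 88.6 and 124. None of the 3 was detected on all 4 arrays.

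Probes without a gene symbol were outside the comparison by gene. Of 2170 such probes detected on at least 1 of the 2 control arrays, 77 lay 2-fold or more above and 56 as far below their sparse value in confluent cells, together 6.13%. Of the measured genes with a symbol, 3.86% lay as far above and 1.63% as far below. What they detect is not annotated here.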

How the results depend on the processing

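The 10 alternatives gave 560 list medians, of which 536 moved by less than 0.28, the SD between probes of a gene. Of the 560, 24 (in 13 lists) had the opposite sign, and in 3 of these the median had been at least 0.28 from 0. Among 4619 values of 468 named genes 32 (in 26 genes) had the opposite sign, 2 of them for genes past 2-fold, and of 144 named genes past 2-fold 78 fell under it in at least 1 alternative. The counts of genes at least 2-fold higher and lower, 396 and 167, became 127 and 57 without correcting the background, 181 and 77 when the offset was 50, 819 and 84 with median scaling, and 143 and 66 in the authors' log2 table; of genes detected on both arrays 234 were higher. With no background correction the medians of fibroblast, haematopoietic and epithelial markers were 0.34, 0.23 and 0.36, and in the authors' values 0.34, 0.16 and 0.39. Median scaling put YAP/TAZ targets at -0.21, FOXO and MondoA targets at 0.74, the Hedgehog list at 0.41, clock genes at 0.50, HEK293 markers at 0.42, endothelial markers at 0.54 and epithelial markers at 1.03. A detection p under 0.05 turned the IGF-binding proteins to -0.0247. No detection filter gave the same -0.0247 for them, and 0.0216 for receptor tyrosine kinases, 0.0590 for histones, and 0.0585, 0.0253 and 0.38 for fibroblast, haematopoietic and epithelial markers. The mean of probes put haematopoietic markers at 0.0205. With undetected values at the detection limit, fibroblast, haematopoietic and epithelial markers were at 0.17, -0.0350 and 0.38, RICTOR at -0.29 and IFIT2 at -0.0210. The cause of these shifts was not tested. No paired analysis was possible because each group has 1 array, all numbered replicate 1, and no result comes from a test; for the same reason no replicate could be left out. Genes near the detection limit have the least certain values, since an offset and a background estimate set much of their fold.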

Other observations

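Members of the PAF1 complex, which CDC73 belongs to, were measured in 5 cases, and all 5 were lower in confluent cells with control siRNA, with a median of -0.44 and none past 2-fold. SKIC8 gave 2836 in sparse and 1996 in confluent cells (-0.68), and LEO1 and PAF1 were at -0.49 and -0.44. CTR9 (-0.16) and RTF1 (-0.10) were lower only after normalization, since their intensities were 303 and 154 in sparse and 339 and 175 in confluent cells. Importins, exportins and nucleoporins were lower in 27 of 39 measured members, with a median of -0.16. Receptor tyrosine kinases and insulin receptor substrates were higher in 11 of 15, with a median of 0.36, or 0.12 over members detected on both arrays. Over 14 members measured with both siRNAs it was 0.24 with control and 0.05 with CDC73 siRNA, and 7 had the same sign.

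Other gene groups differed little. The median was 0.18 for immediate early genes, 0.11 for both lysosome and autophagy genes, 0.11 for the Hedgehog list, 0.09 for antigen presentation, 0.07 for the primary cilium, 0.04 for TGF-beta and BMP response genes and -0.17 for ER chaperones. The amino acid stress list had 0.08, which turned to -0.0016 in the authors' log2 table, with ATF5 at -1.13 and VLDLR at 1.17. The BCL2 family had -0.14, which turned to 0.10 under median scaling, and it lay 0.16 and 0.12 below the median of all genes under the 2 scalings. In confluent cells 3 of 8 haematopoietic, 2 of 8 endothelial and 3 of 9 epithelial and hepatocyte markers were detected, and PTPRC, CDH5, ALB and EPCAM were not detected on either array.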
